A study of Homo sapiens with 6 samples.

Results

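The comparison of siL1 with the control siRNA covered 4 of the 6 libraries of the study, 2 per group, and 13322 of the 23368 gene symbols in the deposited table, those that passed a filter on low counts. All cells were MDA-MB231, an established triple-negative breast cancer line with a mesenchymal appearance, grown in DMEM with 10% serum and transfected with interferin, a lipid-like reagent. The control libraries (siControl) carried an siRNA named only as a control, and the siL1 libraries carried one of the 2 siRNAs against LSD1. The other LSD1 siRNA, siL2, also with 2 libraries, served only as a reference. All groups share the cell line, the medium and the transfection. They rest on 1 line, the time between transfection and harvest is not given in the sources used here, and no sample combines an siRNA with restored LSD1. The labels do not say whether the 2 libraries of a group were separate cultures, and the p-values therefore cover only the spread between these libraries, which may be technical.

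LSD1, encoded by KDM1A, removes methyl groups from lysines of histone H3 and works with CoREST in complexes that repress transcription. A dividing cell licenses its replication origins with the origin recognition complex and the MCM helicase, copies its DNA in S phase under E2F control, and then switches on mitotic genes whose promoters carry the elements CHR and CCAAT. Hypoxia-inducible factors act at a short core element to raise genes of glucose uptake, glycolysis, vessel growth and collagen processing, and breast cancer cells with mesenchymal traits make and remodel matrix partly under TGF-beta.

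The libraries held 22047738 to 26765079 counts, and the siL1 libraries were on average 5.449% deeper than the control libraries. Levels are given as CPM, counts scaled to a common library size with TMM factors. A gene with no count could still stand at up to 3 counts, or 0.1116 to 0.1362 CPM depending on the library, for counting error only. Of 15 marker genes of the line, all passed the filter. Vimentin (VIM) stood at 3572 and 3575 CPM under siControl and the receptor kinase AXL at 1587 and 1472 CPM, while KRT81 was close to 0 in the control, at 0.0454 and 0.127 CPM. The epithelial cadherin CDH1 and the estrogen receptor gene ESR1 were at or below the limit of 3 counts in every library.

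KDM1A itself checked the labels. It stood at 158 and 165 CPM under siControl, 27.7 and 28.3 CPM under siL1 and 17.3 and 18.1 CPM under siL2, with no overlap between any of the groups. The depletion with siL1 was the shallower of the 2: KDM1A was 0.66 higher on the log2 scale with siL1 than with siL2 (SE 0.0647, adjusted p = 4.36e-06).

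Each gene was compared with edgeR's quasi-likelihood test on the counts, and adjusted p-values are Benjamini-Hochberg values over all 13322 genes, with a threshold of 0.05. Against the control 50.4% of the tested genes were called with siL1, 24.7% as higher and 25.7% as lower, so that a call by itself is common in these data. Against siL2, 46.8% were called, 23.7% as higher with siL1 and 23.2% as lower. A gene is named particular to siL1 below where it passed the threshold against the control and also, with the same sign, against siL2. Both of these comparisons use the same siL1 libraries. By this rule 1657 genes (12.4%) were particular to siL1 as higher and 1753 (13.2%) as lower. Of these, 960 higher and 1134 lower genes were not called with siL2 against the control. Another 454 and 328 were called with siL2 in the same direction as with siL1. The term therefore includes graded changes that both siRNAs share. The directions were uneven at larger sizes. Changed at least 2-fold against the control were 500 genes as higher (3.75%) and 105 as lower (0.788%), and of the particular genes 295 (2.21%) were higher and 60 (0.45%) lower. The median log2 fold change over all tested genes was -0.014 against the control.

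**Figure D1:**
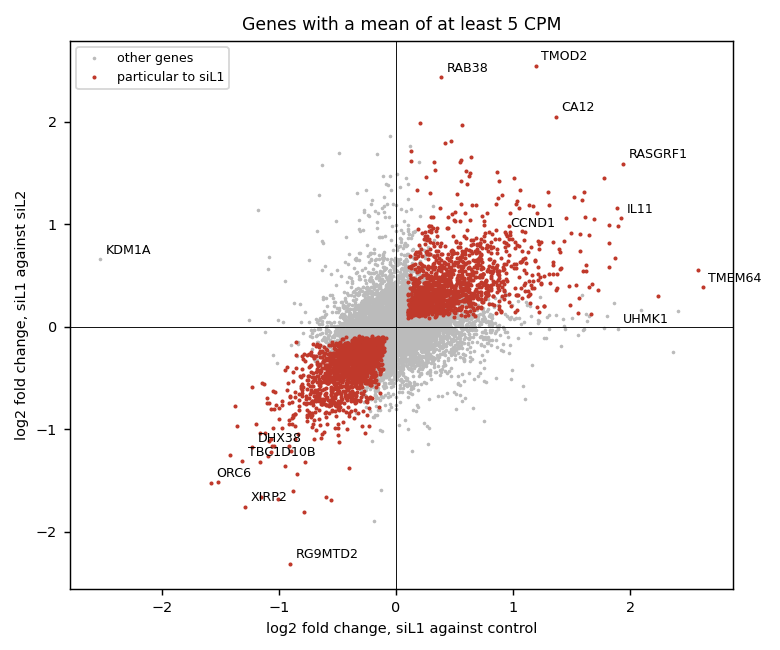
Each point is 1 of 10448 tested genes whose mean was 5 CPM or more over the 6 libraries; the horizontal axis is the log2 fold change of siL1 against control, the vertical axis that of siL1 against siL2, and the 3052 red points are genes particular to siL1. KDM1A lies alone at the left, above the horizontal line, while ORC6, XIRP2, TBC1D10B and DHX38 lie low on both axes and CA12, RASGRF1 and CCND1 high on both.

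The lowest genes against the control included several that did not pass the threshold with siL2. ORC6, which joins the origin recognition complex, had 59.2 and 63.6 CPM under siControl, 18.0 and 23.1 CPM under siL1 and 56.7 and 61.4 CPM under siL2. Its log2 fold change was -1.58 against siControl (SE 0.093, adjusted p = 4.11e-08), while its log2 fold change with siL2 was -0.058 (adjusted p = 0.602). The siL1 libraries lay apart from the other 4, which overlapped each other. TBC1D10B, a GTPase-activating protein for Rab proteins, had 83.8 and 83.9 CPM under siControl, 34.5 and 33.0 CPM under siL1 and 85.2 and 82.4 CPM under siL2, a log2 difference of -1.31 between the siRNAs (adjusted p = 2.67e-09). The splicing helicase DHX38 showed the same order, with 127 and 134 CPM, 53.7 and 58.0 CPM and 121 and 131 CPM (siL1 against siL2 -1.17, adjusted p = 1.11e-08). LOC147727, a locus named only by its number, stood at 25.01 and 26.2 CPM, 8.88 and 8.99 CPM and 24.6 and 26.6 CPM in the same order of groups. In these genes the siL1 libraries were the only low ones.

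Of the 10 largest rises against the control, 4 were not particular to siL1: TMEM87B, PLSCR4, CACNA2D1 and UHMK1. The kinase gene UHMK1 rose from 121 and 116 to 434 and 446 CPM, beside 437 and 455 CPM under siL2, and the siRNAs did not pass the test against each other (log2 difference -0.02, SE 0.0376, adjusted p = 0.686). RASGRF1, an exchange factor that activates Ras, differed from it: 10.7 and 10.7 CPM under siControl and 13.3 and 14.0 CPM under siL2 stood against 37.3 and 44.8 CPM under siL1 (siL1 against siL2 1.59, adjusted p = 5.67e-08). TMOD2, which caps actin filaments, had the largest difference between the siRNAs of the particular rises. It stood at 6.13 and 6.30 CPM under siControl, 14.7 and 13.7 CPM under siL1 and 2.57 and 2.27 CPM under siL2, so the groups lay on opposite sides of the control (siL1 against siL2 2.55, adjusted p = 1.74e-08). Of the particular falls, the largest difference between the siRNAs was in RG9MTD2, a tRNA methyltransferase gene, with 6.54 and 7.62 CPM under siControl, 3.74 and 3.84 CPM under siL1 and 18.6 and 19.1 CPM under siL2.

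Of the 12 largest or most particular falls with an annotated 3' UTR, 5 share a 7-base sequence in it, ACAGAGC. Earlier work on these data had picked out this sequence, which therefore supports nothing here by itself. Of the falls described above, ORC6 held it, TBC1D10B, DHX38 and RG9MTD2 did not, and LOC147727 had no sequence. It is shown because some of the falls share it, and short matches to 3' UTRs are a known property of siRNAs. Whether siL1 matches it was not tested, since its sequence is not given in the sources used here. Of the 8 largest falls against the control with an annotated 3' UTR, 4 held it, and of the 6 lowest particular genes with one, 3 did. These windows of 27 bases are read from GRCh38 with the GENCODE v29 annotation; the authors counted on hg19. Capitals mark the 7 bases:
GCC2: agctcggggaACAGAGCgagaccttgt
SLC35F3: caaaaaaatgACAGAGCtgatggccag
XIRP2: aaacagactgACAGAGCagctgctggc
KDM1A: ccacggagcgACAGAGCgagcggcccc

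ORC6 and the phospholipase gene PAFAH2 each hold 2 copies in the 3' UTR, and their windows are not shown. GCC2, a Golgi tether, holds its copy at chr2:108508116-108508142 on the plus strand in the last of 23 exons. SLC35F3, of a solute carrier family, holds 2 copies, 1 of them at chr1:234324049-234324075 on the plus strand, and the actin-binding XIRP2 holds 1 at chr2:167258890-167258916 on the plus strand. The KDM1A copy at chr1:23019541-23019567, on the plus strand, lies in the 5' UTR, 39 bases before the start codon, and is the only one in the transcript KDM1A-201. Of 12244 tested genes with a 3' UTR of at least 50 bases (91.91% of those tested), 17.98% held ACAGAGC, against 22.97% of 1663 genes particular to siL1 as lower and 16.8% of 1613 as higher. Genes that held it had long 3' UTRs, with medians of 3092 and 3174 bases in 2 classes split by the letters around the copy, against 1181 bases without it. The part of 3' UTR length in these shares was not tested. For the 3 other heptamers searched, the share among particular falls and among all searched genes was 23.03% and 26.94% for TACATTT, 17.68% and 22.26% for ACATTTA, and 5.713% and 9.548% for GTTACAA. Among particular rises the shares were 33.48%, 28.15% and 14.2% in the same order. Genes that held GTTACAA had a median log2 fold change against the control of 0.020 with siL1 and -0.12 with siL2. These 3 heptamers too were chosen with earlier results of these data known. Whether siL2 matches GTTACAA was not tested.

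Transcripts of DNA replication were lower with siL1. Of 84 replication genes, all tested, 56 fell and 9 rose against the control, which is 66.67% lower beside 25.7% of all tested genes, with a median log2 fold change of -0.23. With siL2, whose comparison uses the same control libraries, 16 fell and 19 rose, with a median of 0.0035, where 45.8% of all tested genes were called. Between the siRNAs, 59 were lower and 6 higher with siL1, and 47 of the 84 were particular to siL1 as lower and 4 as higher. Those 47 are 55.95% of the list, beside 13.2% of all tested genes. Their summed level was 12150 and 12370 CPM under siControl, 10980 and 11320 CPM under siL1, and 12400 and 12750 CPM under siL2, so the siL1 libraries were the lowest of the 6.

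Licensing, the loading of the MCM helicase onto origins before S phase, was lower in 12 of its 18 genes and higher in 1. Within the origin recognition complex the subunits differed. ORC6 was 1.58 lower on the log2 scale and ORC5, another subunit, fell from 37.0 and 36.8 to 27.2 and 26.0 CPM (log2 fold change -0.47, adjusted p = 5.64e-05), whereas ORC4 rose by 0.21 and ORC1 fell by 0.18. ORC2 and ORC3 had log2 fold changes of -0.095 and -0.086 and did not pass (adjusted p = 0.144 and 0.173). All 6 subunits of the MCM helicase fell. MCM6 moved furthest, with 188 and 196 CPM under siControl, 117 and 116 CPM under siL1 and 207 and 212 CPM under siL2 (log2 fold change against control -0.72, SE 0.041, adjusted p = 3.15e-08). MCM2 went from 304 and 309 to 212 and 218 CPM (-0.51), MCM3 from 629 and 659 to 477 and 489.9 CPM (-0.41), and MCM7, MCM5 and MCM4 had log2 fold changes of -0.33, -0.24 and -0.11. MCM6 and MCM2 were higher than the control with siL2 (adjusted p = 0.0206 and 0.0464), and MCM4 was the 1 subunit whose level did not pass between the siRNAs (log2 difference 0.0013, SE 0.0359).

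Of 11 origin-firing genes, 6 fell and 0 rose, and of 30 fork genes, 22 fell and 3 rose. FEN1, which trims the flaps of Okazaki fragments, had 221 and 234 CPM under siControl, 142 and 143 CPM under siL1 and 215 and 221 CPM under siL2 (log2 fold change -0.67, adjusted p = 5.89e-08). PCNA, the sliding clamp, lay on opposite sides of the control: 139 and 147 CPM under siL1 and 213 and 217 CPM under siL2, around 174 and 182 CPM (siL1 against siL2 -0.59, adjusted p = 3.02e-07). RFC5, a subunit of the loader that places PCNA on DNA, went the other way and rose from 63.9 and 65.9 to 108 and 106 CPM (0.73, adjusted p = 9.83e-08). Among 10 genes of nucleotide synthesis, 8 fell and 1 rose. The thymidylate kinase DTYMK fell from 96.9 and 95.8 to 59.9 and 53.8 CPM, beside 106 and 103 CPM under siL2, and the thymidine kinase TK1 was the 1 that rose, by 0.25 on the log2 scale with siL1 and 0.26 with siL2.

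The 15 regulators of entry into S phase were split, with 8 lower and 4 higher. Cyclin E1 (CCNE1), which drives CDK2 at the start of S phase, fell from 22.1 and 19.0 to 9.69 and 9.07 CPM (log2 fold change -1.13, adjusted p = 1.68e-06), with 13.9 and 13.8 CPM under siL2. Its paralog CCNE2 rose, from 32.6 and 37.7 to 46.4 and 46.9 CPM, and these siL1 libraries lay between those of the control and siL2. E2F1, a transcription factor of S-phase genes, fell from 83.0 and 92.7 to 62.3 and 66.3 CPM under siL1 and stood at 109 and 116 CPM under siL2, above both control libraries. SKP2, which marks the inhibitor p27 for destruction, fell from 241 and 220.2 to 139 and 126 CPM (-0.80, adjusted p = 1.52e-07). The D-type cyclins, which act earlier in G1, moved up. CCND1 had 544 and 531 CPM under siControl, 977 and 1074 CPM under siL1 and 535 and 545 CPM under siL2, so that the rise of 0.93 on the log2 scale (SE 0.0424, adjusted p = 4.75e-09) had no counterpart with siL2 (0.008, adjusted p = 0.897; the difference between the siRNAs had adjusted p = 7.84e-09). CCND3 rose by 0.39, and CDK6, a partner of D-type cyclins, rose by 0.76 with siL1 and by 1.67 with siL2. Of the 2 E-type cyclins, 1 fell and 1 rose in the same siL1 libraries.

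Of the 15 CDK inhibitors, pocket proteins and other brakes on the cycle that were tested, 7 rose and 6 fell. Those are 46.67% and 40.0%, beside 24.7% and 25.7% of all tested genes. CDKN1A, which encodes the CDK inhibitor p21, rose from 29.1 and 32.4 to 54.3 and 60.9 CPM (0.90, adjusted p = 7.52e-07), with 42.8 and 45.1 CPM under siL2. CDKN1B, which encodes p27, fell from 65.0 and 64.4 to 39.5 and 43.0 CPM, while its level with siL2 was 60.8 and 62.7 CPM. The antiproliferative BTG2 fell from 7.90 and 6.94 to 1.95 and 2.45 CPM, and CCNG2, an atypical cyclin linked to arrest, rose from 6.04 and 7.23 to 14.3 and 14.3 CPM and further, to 23.8 and 22.8 CPM, with siL2.

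**Figure D2:**
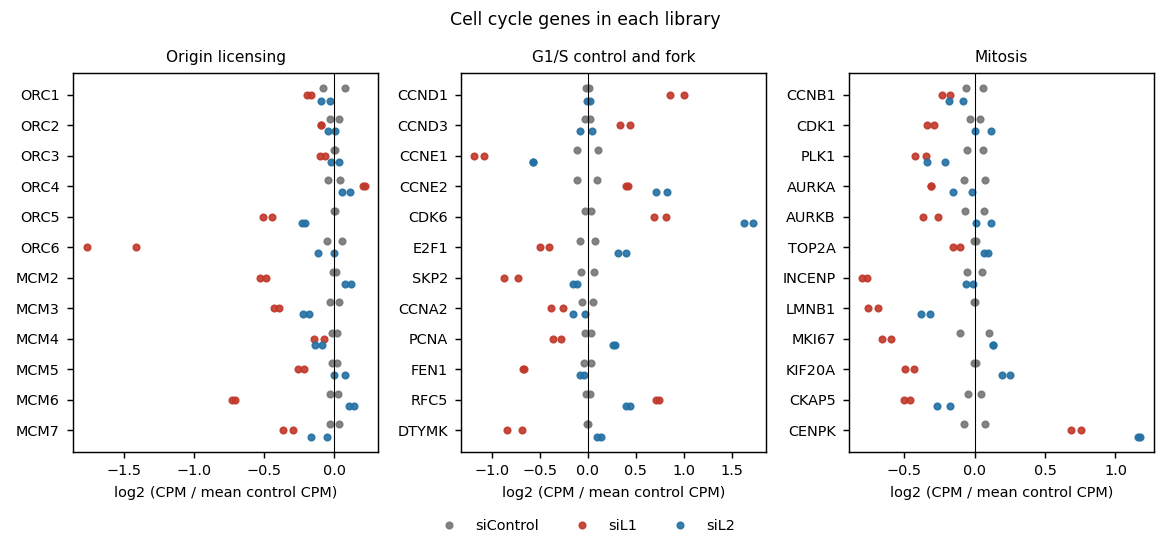
Each dot is 1 library, placed by the log2 ratio of its CPM to the mean control CPM of the gene, for 12 genes each of origin licensing, of G1/S control and the fork, and of mitosis. The siL1 dots of ORC6, MCM6, FEN1, DTYMK, INCENP and MKI67 lie left of the control and siL2 dots, those of CCND1 and RFC5 lie right of both, and those of CCNE2, CDK6 and CENPK lie between control and siL2.

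Mitotic transcripts were lower with siL1 in a similar share. Of 101 mitosis genes, all tested, 67 fell and 6 rose against the control (median -0.22), beside 23 lower and 20 higher with siL2 against the same control (median 0.010). Against siL2, 72 were lower and 6 higher with siL1, and 57 were particular to siL1 as lower and 1 as higher. Lower against the control were 66.34% of the list, and particular as lower 56.44%, beside 25.7% and 13.2% of all tested genes. The counts by role are given without a test between roles. Of 16 genes of chromosome structure, such as condensins, 15 fell and 0 rose, and 14 of the 15 were also lower than with siL2. Of 21 mitotic kinases and cyclins 17 fell and 0 rose, of 11 checkpoint and exit genes 8 fell and 0 rose, and of 29 spindle and cytokinesis genes 20 fell and 1 rose. Of 19 kinetochore and centromere genes 7 fell and 3 rose against the control, while 13 were lower and 1 higher with siL1 than with siL2. The 7 are 36.84% of this role, beside 25.7% of all tested genes. The 5 transcription factors of the mitotic program had 0 falls and 2 rises.

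MKI67, which coats mitotic chromosomes and marks dividing cells, had 666 and 577 CPM under siControl, 411 and 393 CPM under siL1 and 679.9 and 681 CPM under siL2. Against siL2 the difference was -0.76 on the log2 scale (SE 0.0538, adjusted p = 2.42e-07). INCENP, the scaffold of the chromosomal passenger complex, moved furthest of the mitosis list, with 95.1 and 103 CPM under siControl, 58.2 and 56.9 CPM under siL1 and 94.8 and 97.8 CPM under siL2 (against control -0.78, adjusted p = 1.27e-07). Its enzyme partner AURKB fell less, from 206 and 227 to 168 and 181 CPM (-0.31). The nuclear lamina gene LMNB1 fell from 302 and 299.8 to 178 and 187 CPM and had 231 and 241 CPM under siL2. KIF20A, a kinesin of cytokinesis, fell to 154 and 147 CPM under siL1 from 207 and 209 CPM and stood higher, at 237 and 247 CPM, with siL2. The microtubule polymerase CKAP5 fell by 0.48 and the kinase MELK by 0.53 on the log2 scale.

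Among the main mitotic drivers, CDK1 fell from 293 and 307 to 237 and 245 CPM (-0.32, adjusted p = 7.91e-05) and AURKA fell by 0.31. PLK1 fell by 0.39 with siL1 and by 0.28 with siL2, and CCNB1 by 0.20 and 0.13, and neither passed between the siRNAs (adjusted p = 0.105 and 0.232). FOXM1, a transcription factor of the mitotic genes, did not pass against the control, at 369 and 379 and 375 and 388 CPM (log2 fold change 0.029, SE 0.0354, adjusted p = 0.526). The centromere gene CENPK rose from 37.5 and 41.7 to 66.7 and 63.6 CPM and to 88.6 and 89.7 CPM under siL2.

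Repair by homologous recombination, which works in S and G2 phase, fell too: of 33 genes tested of 34, 20 fell and 0 rose (median -0.24), beside 9 and 6 with siL2 (median -0.084), and 17 were particular to siL1 as lower. The 20 and the 17 are 60.61% and 51.52%, beside 25.7% and 13.2% of all tested genes. The exonuclease EXO1 fell from 65.5 and 65.2 to 40.0 and 42.8 CPM, beside 58.9 and 64.1 CPM under siL2 (siL1 against siL2 -0.57, adjusted p = 8.74e-06). FANCC, of the Fanconi anaemia core complex, fell to 19.3 and 19.7 CPM under siL1 from 29.2 and 31.4 CPM and stood at 41.1 and 41.5 CPM under siL2. Replicative histone genes, whose transcripts mostly lack a poly(A) tail, did not separate the siRNAs. Of 56 listed symbols, 13 were tested, and 5 fell and 0 rose with siL1 (median -0.50), 4 fell and 0 rose with siL2 (median -0.42), and 0 were particular to siL1. The 5 are 38.46% of those tested, beside 25.7% of all tested genes. HIST1H1C, a linker histone gene, went from 28.8 and 29.6 to 16.3 and 16.4 CPM and to 16.7 and 20.1 CPM under siL2. Reads shared between histone copies cannot be followed in a table summed per symbol. The count of 5 was 3 without control replicate 2 and 3 without siL1 replicate 1. In bulk libraries, fewer cycling cells and less of these transcripts per cell cannot be told apart.

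Promoter letters are shown for genes that fell together. The windows come from RefSeq on GRCh38.p14, run 5' to 3' in the sense of the gene, and were searched on both strands from 250 bases before to 50 after the start. The E2F letters TTGGCGC or TTCGCGC were in 24 of 71 replication promoters (33.8%), against 5.179% of all 27305 promoters in the reference table. The CHR letters TTTGAA or TTCGAA were in 59 of 84 mitosis promoters (70.24%), against 16.62% of all promoters, and CCAAT was in 55 of the 84 (65.48%), against 35.7%. The lists hold expressed genes. Over all tested genes with a promoter sequence the shares were 8.673% for E2F, 10.99% for CHR and 36.57% for CCAAT. Promoters were matched for 77.46% of the tested genes, too few to compare called with uncalled genes. The median log2 fold change was -0.22 for mitosis genes with CHR letters and -0.23 without, and -0.31 for replication genes with E2F letters and -0.22 without. Among 29 homologous recombination promoters, 8 held the E2F letters, with a median of -0.55 beside -0.20 for the others. These differences were not tested. A match is a description of letters and not a site. In MCM6 the capitals mark 2 overlapping E2F matches, in INCENP and MKI67 the CHR letters on the sense strand, and in CKAP5 the CHR letters on the opposite strand:
MCM6: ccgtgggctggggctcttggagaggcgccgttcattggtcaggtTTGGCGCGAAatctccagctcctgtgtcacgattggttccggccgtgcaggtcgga
INCENP: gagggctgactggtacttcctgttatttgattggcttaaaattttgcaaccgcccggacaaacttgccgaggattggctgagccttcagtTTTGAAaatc
MKI67: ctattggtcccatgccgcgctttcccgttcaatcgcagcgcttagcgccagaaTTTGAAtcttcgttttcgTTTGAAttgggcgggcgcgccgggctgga
CKAP5: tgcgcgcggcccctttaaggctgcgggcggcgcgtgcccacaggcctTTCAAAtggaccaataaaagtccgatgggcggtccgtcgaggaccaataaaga

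These windows lie at chr2:135876477-135876576 on the minus strand (MCM6), chr11:62123911-62124010 on the plus strand (INCENP), chr10:128126424-128126523 on the minus strand (MKI67) and chr11:46846301-46846400 on the minus strand (CKAP5), all upstream of the annotated start.

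Matrix genes were higher with siL1. Of 40 collagen genes 21 were tested, and 13 rose and 1 fell against the control (median 0.45), beside 9 higher and 5 lower with siL2 against the same control (median 0.34). Of the 13, 9 were particular to siL1. The 13 and the 9 are 61.9% and 42.86%, beside 24.7% and 12.4% of all tested genes. COL6A3, among the 13, had passed the filter only through the siL1 libraries, so its test supports nothing. COL5A1, which sets the width of collagen fibrils, had 22.7 and 20.5 CPM under siControl, 65.7 and 74.2 CPM under siL1 and 32.6 and 34.6 CPM under siL2 (against siL2 1.06, SE 0.0725, adjusted p = 1.84e-07). The basement membrane pair COL4A1 and COL4A2 rose with siL1 and did not pass against the control with siL2 (adjusted p = 0.262 and 0.679): COL4A1 had 129 and 110.1 CPM, 191 and 195 CPM and 118 and 104 CPM in control, siL1 and siL2, and COL4A2 had 308 and 273 CPM, 396 and 397 CPM and 292 and 277 CPM. For siL1 against siL2 the log2 differences were 0.80 and 0.48 (adjusted p = 1.73e-06 and 8.59e-06). COL1A1, a chain of type I collagen, rose from 6.58 and 5.25 to 12.4 and 12.1 CPM, and COL6A1 from 45.6 and 46.9 to 67.2 and 69.5 CPM. COL8A1 was the 1 collagen that fell, from 48.8 and 48.4 to 25.2 and 25.8 CPM, with 33.3 and 33.8 CPM under siL2.

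Of 47 matrix glycoproteins and proteoglycans tested of 66, 33 rose and 4 fell (median 0.41), beside 24.7% of all tested genes higher. With siL2 against the same control 17 rose and 4 fell (median 0.17). Particular to siL1 were 20 as higher and 3 as lower, and the 20 are 42.55%, beside 12.4% of all tested genes. CTGF, a matricellular protein that binds growth factors, had 730.4 and 749 CPM under siControl, 1381 and 1461 CPM under siL1 and 773 and 744 CPM under siL2, so siL1 alone stood apart (siL1 against siL2 0.91, adjusted p = 2.67e-09). The follistatin-like glycoprotein FSTL1 had 495 and 476 CPM, 916 and 924 CPM and 629 and 615 CPM in the same order, a graded rise. MATN2, a filament-forming matrilin, rose from 29.6 and 27.2 to 59.1 and 53.6 CPM under siL1 and was at 32.6 and 29.4 CPM under siL2. SPARC, a collagen-binding glycoprotein, rose from 5.45 and 6.22 to 13.6 and 16.0 CPM. Fibronectin did not follow. FN1 fell from 132 and 104 to 88.4 and 76.7 CPM (-0.51, SE 0.114, adjusted p = 0.0022), and its libraries spread more within groups than those of the genes above. The cell-surface proteoglycan SDC4 fell by 0.48.

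Enzymes that modify and cross-link collagen rose in 18 of 26 tested genes and fell in 2 (median 0.34), beside 8 and 3 with siL2 (median 0.12), and 11 were particular to siL1 as higher, or 7 without siL1 replicate 2. The 18 and the 11 are 69.23% and 42.31%, beside 24.7% and 12.4% of all tested genes. The lysyl hydroxylase PLOD2, also a hypoxia target, had 128 and 126 CPM under siControl, 257 and 268 CPM under siL1 and 156 and 148 CPM under siL2 (against control 1.05, adjusted p = 2.33e-09). The lysyl oxidases, which cross-link collagen outside the cell, rose by different amounts. LOXL2 rose from 96.8 and 87.2 to 148 and 154 CPM, and LOX rose from 21.4 and 19.3 to 24.1 and 25.6 CPM under siL1 but fell to 15.4 and 14.0 CPM under siL2. The transglutaminase TGM2 rose with both siRNAs, from 839 and 848 CPM to 1594 and 1556 CPM under siL1 and 1435 and 1409 CPM under siL2, and the difference between the siRNAs was small (0.15, adjusted p = 0.00143).

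Matrix proteases and their inhibitors leaned upward with both siRNAs. With siL1, 21 of 31 tested proteases were higher and 3 lower, and 11 of 13 inhibitors higher and 0 lower. Over all tested genes 24.7% were higher with siL1. With siL2 against the same control, 15 proteases were higher and 4 lower, and 9 inhibitors higher and 1 lower, where 22.6% of all tested genes were higher. In plasminogen activation, the activator gene PLAT rose from 23.7 and 25.7 to 49.5 and 52.0 CPM and the urokinase receptor PLAUR from 53.9 and 62.1 to 108 and 110.1 CPM. The siL2 libraries lay between control and siL1 in both, at 28.4 and 30.0 CPM for PLAT and 76.2 and 72.7 CPM for PLAUR. The metalloproteinase inhibitor TIMP2 rose by 0.89 and the shedding protease ADAM19 by 0.81. Collagenase went the other way. MMP1 had 9.12 and 12.9 CPM under siControl, 6.25 and 7.73 CPM under siL1 and 2.23 and 3.53 CPM under siL2, a fall of 0.66 on the log2 scale with siL1 (adjusted p = 0.0104) and of 1.95 with siL2. MMP24, a membrane-bound metalloproteinase, fell to 11.9 and 11.4 CPM under siL1 from 21.5 and 20.8 CPM and stood at 24.99 and 24.5 CPM under siL2.

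In the TGF-beta pathway, ligands bind a pair of receptor kinases that phosphorylate SMADs, which enter the nucleus and act on target genes. Of 48 tested genes 29 rose and 5 fell (median 0.35), beside 17 and 6 with siL2 (median 0.14), and 19 were particular to siL1 as higher. The 29 and the 19 are 60.42% and 39.58%, beside 24.7% and 12.4% of all tested genes. Targets were the most one-sided role, with 13 of 19 higher and 0 lower against the control and 12 of the 13 particular to siL1, beside 6 higher and 3 lower with siL2. The cytokine IL11 had 12.9 and 18.1 CPM under siControl, 54.4 and 63.4 CPM under siL1 and 26.0 and 30.7 CPM under siL2 (1.92 against control, SE 0.127, adjusted p = 1.11e-07). LTBP2, a latent TGF-beta binding protein family member, rose from 66.9 and 66.6 to 142 and 146 CPM, with siL2 between at 99.7 and 101 CPM.

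The upstream parts were mixed. The receptor TGFBR1 rose with both, from 27.2 and 30.5 CPM to 88.1 and 96.5 CPM under siL1 and 70.8 and 67.6 CPM under siL2, and TGFBR2 likewise, from 445 and 436 CPM to 583 and 618 and 625 and 648 CPM. The ligand TGFB1 rose by 0.40 with siL1, and TGFB2 rose by 0.78 with siL1 and 0.88 with siL2. SMAD3, a receptor-activated SMAD, did not pass against the control (-0.069, adjusted p = 0.199). SMAD5 rose and SMAD1 fell with both siRNAs, by log2 fold changes of 1.03 and -0.79 with siL1 and 0.94 and -0.73 with siL2. The activin receptors ACVR1B and ACVR2B fell with siL1, to 18.1 and 17.1 CPM from 25.7 and 27.6 CPM and to 19.0 and 20.1 CPM from 34.7 and 29.2 CPM.

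Markers of stromal cells moved with the matrix genes. Of 22 fibroblast and endothelial markers 10 were tested, of which 5 rose and 0 fell with siL1 (median 0.56), as did 5 and 0 with siL2 against the same control (median 0.44), and 4 were particular to siL1. COL1A1 is on both lists. Over all tested genes, 24.7% were higher with siL1 and 22.6% with siL2. The summed level of the 22 was 206.5 and 205.2 CPM under siControl, 253.2 and 263.7 CPM under siL1, and 232.8 and 236.7 CPM under siL2, most of it from the endothelial kinase TIE1. The defining fibroblast genes DCN, LUM and COL1A2 and the endothelial PLVAP had 0 counts in all 6 libraries, and the fibroblast gene FAP had at most 1 count in any library. PDGFRB, a growth factor receptor of mural cells, had 0.772 and 0.888 CPM under siControl, 6.46 and 7.97 CPM under siL1 and 3.79 and 3.65 CPM under siL2. Of 27 blood cell markers 3 were tested and 1 rose, a gene that passed the count filter only through the siL1 libraries, 11 had 0 counts in every library, and the summed level was 215.3 and 225.4 CPM under siControl and 227 and 211.2 CPM under siL1.

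**Figure D3:**
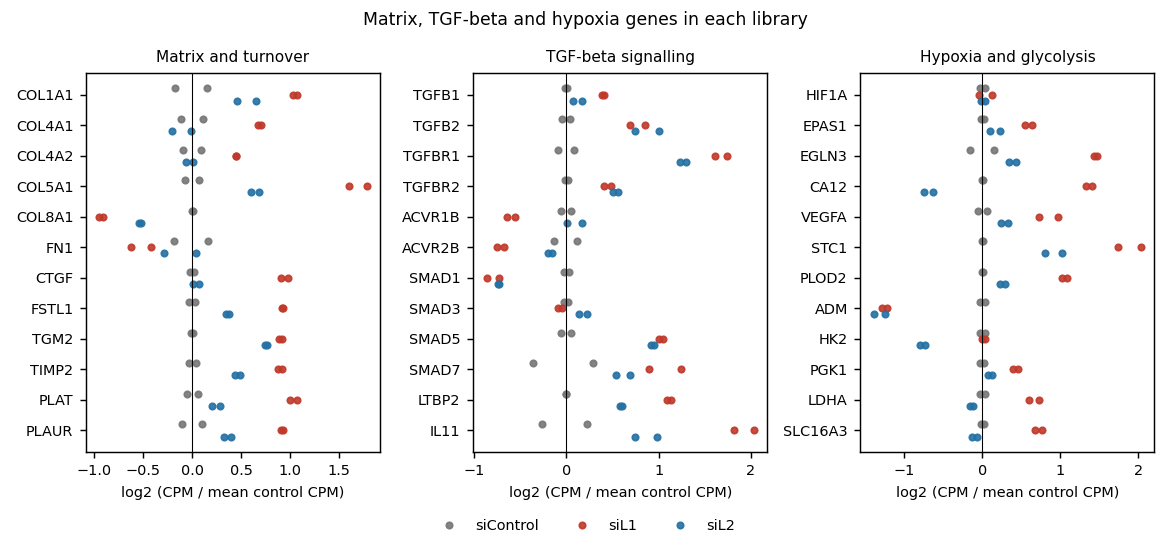
Each dot is 1 library, placed by the log2 ratio of its CPM to the mean control CPM of the gene, for 12 genes each of matrix and its turnover, of TGF-beta signalling, and of hypoxia and glycolysis. In CTGF, COL4A1, LDHA and SLC16A3 the siL1 dots stand right of control and siL2 dots that lie close together, in TGFBR2, SMAD5 and SMAD1 the siL1 and siL2 dots lie together, and ADM lies far left with both siRNAs.

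Hypoxia targets were higher with siL1, without a change of HIF1A itself past the test. Of 58 hypoxia genes tested of 60, 34 rose and 4 fell against the control (median 0.45), beside 16 higher and 10 lower with siL2 against the same control (median 0.041). Between the siRNAs 32 were higher and 3 lower with siL1, and 26 were particular to siL1 as higher and 2 as lower. Higher against the control were 58.62% of the list, and particular as higher 44.83%, beside 24.7% and 12.4% of all tested genes. The summed level was 3862 and 3865 CPM under siControl, 5026 and 5208 CPM under siL1, and 4077 and 4075 CPM under siL2.

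Of 9 sensors and factors, 3 rose and 1 fell. The 3 are 33.33% of this role, beside 24.7% of all tested genes. HIF1A, the oxygen-regulated subunit whose protein is controlled mainly by its breakdown, had 333 and 348 CPM under siControl and 331 and 373 CPM under siL1 (log2 fold change 0.046, SE 0.0507, adjusted p = 0.48), and the groups overlapped. EPAS1, which encodes HIF-2 alpha, rose from 20.3 and 20.9 to 30.1 and 32.2 CPM. EGLN3, an oxygen-dependent prolyl hydroxylase and itself a target, rose from 3.86 and 3.13 to 9.39 and 9.69 CPM, beside 4.43 and 4.71 CPM under siL2 (siL1 against siL2 1.06, adjusted p = 2.88e-05). VHL, which marks the hydroxylated factors for breakdown, fell by 0.22 with siL1 and 0.23 with siL2.

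Of 49 targets, 31 rose and 3 fell. The carbonic anhydrase CA12 had 6.99 and 6.94 CPM under siControl, 17.4 and 18.4 CPM under siL1 and 4.50 and 4.14 CPM under siL2, so the siRNAs lay on opposite sides of the control (difference 2.05, SE 0.11, adjusted p = 2.46e-08). A related carbonic anhydrase, CA9, was below the count filter and has no test: it had 0 and 0 counts in the control libraries, 9 and 10 with siL1, and 1 and 0 with siL2. Taken over both libraries of a group, siL1 was at least 6.03-fold higher than the 3 counts that 0 allows. STC1, a secreted glycoprotein, rose from 4.54 and 4.53 to 15.2 and 18.6 CPM (1.90, adjusted p = 2.51e-07) and VEGFA, the vessel growth factor, from 21.3 and 23.0 to 36.5 and 43.5 CPM. NDRG1 had 133 and 125 CPM under siControl, 239 and 255 CPM under siL1 and 147 and 142 CPM under siL2. The mitophagy receptor BNIP3 rose from 92.0 and 90.6 to 131 and 133 CPM under siL1 and did not pass with siL2 (0.08, adjusted p = 0.147), while its relative BNIP3L rose with both, to 148 and 155 CPM and 122 and 124 CPM from 84.9 and 84.7 CPM.

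Some hypoxia-inducible genes fell. ADM, the peptide adrenomedullin, had 122 and 128 CPM under siControl, 51.4 and 53.4 CPM under siL1 and 47.6 and 52.6 CPM under siL2, with no difference between the siRNAs past the test (0.065, SE 0.06, adjusted p = 0.402). CITED2, an inhibitor of the hypoxia-inducible factors, fell from 174 and 159 to 120.0 and 113 CPM and IGFBP3, which binds insulin-like growth factors, from 196 and 202 to 145 and 138 CPM. Both were particular to siL1, at 177 and 172 and 191 and 206 CPM under siL2.

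Glycolysis genes rose in 23 of 35 tested and fell in 2 (median 0.27), beside 9 and 6 with siL2 (median -0.0073), and 18 were particular to siL1 as higher and 0 as lower. The 23 and the 18 are 65.71% and 51.43%, beside 24.7% and 12.4% of all tested genes. LDHA, which makes lactate, had 862 and 899 CPM under siControl, 1335 and 1451 CPM under siL1 and 786 and 808 CPM under siL2, on opposite sides of the control (difference 0.81, adjusted p = 1.64e-08). The lactate exporter SLC16A3 had 165 and 169 CPM, 267 and 283 CPM and 159 and 152 CPM in control, siL1 and siL2. Glucose uptake and payoff steps rose as well: the transporter SLC2A1 went from 234 and 259 to 307 and 373 CPM and PGK1, an ATP-making step, from 533 and 552 to 711 and 744 CPM. HK2, the inducible hexokinase, differed between the siRNAs without a change with siL1 past the test. It had 213 and 204 CPM under siControl and 208 and 213 CPM under siL1 (adjusted p = 0.777) but 125 and 119 CPM under siL2. PFKM, the muscle-type phosphofructokinase, fell from 137 and 147 to 113 and 113 CPM.

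The hypoxia core letters ACGTG, searched on both strands as above, were in 26 of the 46 hypoxia promoters with a sequence. They were in 21.61% of all promoters of the table and 26.82% of those of tested genes. A sequence was found for 46 of the 58 tested genes, fewer than 4 in 5, so this share is void as a check. The median log2 fold change with siL1 was 0.35 for hypoxia genes with these letters and 0.55 for those without, a difference not tested. The 2 windows below belong to targets that rose with siL1, and show the letters only. Capitals mark ACGTG, which in BNIP3 reads on both strands as CACGTG:
PLOD2: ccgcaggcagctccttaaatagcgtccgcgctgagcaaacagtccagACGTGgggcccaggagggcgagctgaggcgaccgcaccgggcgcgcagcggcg
BNIP3: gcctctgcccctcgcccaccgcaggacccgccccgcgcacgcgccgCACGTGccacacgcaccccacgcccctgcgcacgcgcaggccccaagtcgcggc

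The PLOD2 window lies at chr3:146161278-146161377 and the BNIP3 window at chr10:131982004-131982103, both on the minus strand and upstream of the annotated start.

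**Figure D4:**
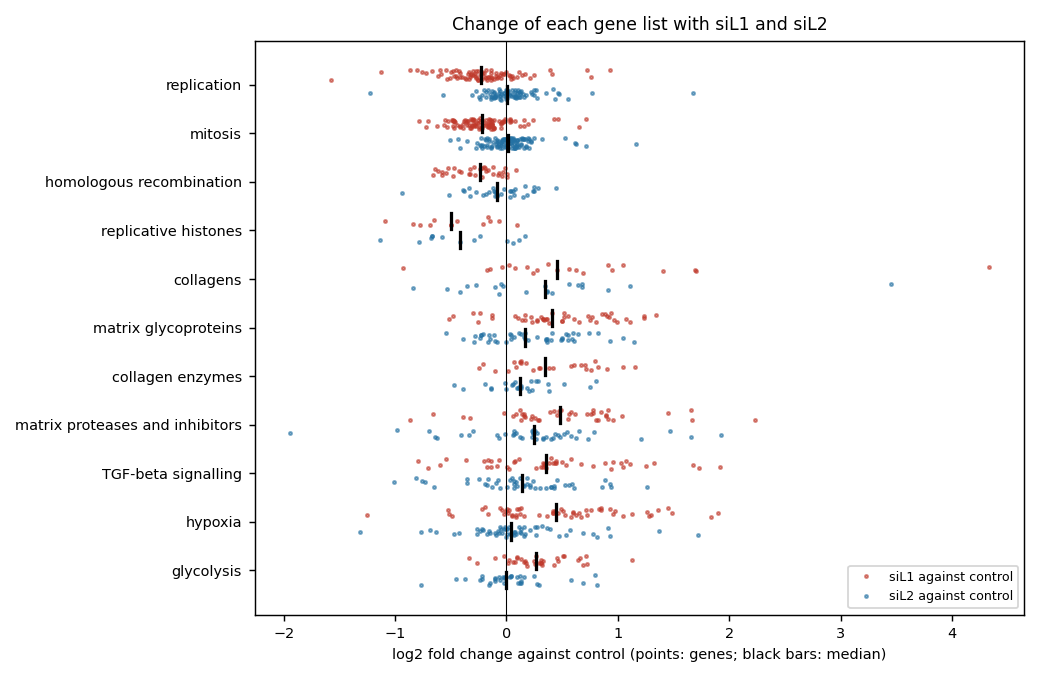
Each point is 1 tested gene of the list named at the left, placed by its log2 fold change against control with siL1 (red) or siL2 (blue), and black bars are medians. The red medians of replication (-0.23), mitosis (-0.22) and homologous recombination (-0.24) lie left of 0 and those of hypoxia (0.45) and the matrix lists right of it, while the replicative histone medians lie left of 0 with both siRNAs. The collagen points farthest right are COL6A3, at 0 and 0.0423 CPM under siControl. Its fitted fold change depends on the prior count and is no bound. COL6A3 passed the filter only through the siL1 libraries and is named because the points stand apart.

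Rare transcripts leaned upward with siL1. Of 1119 tested genes with a mean under 1 CPM over the 6 libraries, 172 were higher and 42 lower than in the control (median 0.17), whereas among 2755 genes over 100 CPM, 808 were higher and 1004 lower (median -0.029). Between 1 and 10 CPM the counts were 679 higher and 330 lower, and between 10 and 100 CPM 1630 and 2047. In the direct comparison of the siRNAs, 118 of the genes under 1 CPM were higher with siL1 than with siL2 and 59 lower. As particular to siL1, 64 were higher and 10 lower. With siL2 against the control the same class had 88 higher and 54 lower. The filter bears on these counts, since a gene was tested where 2 libraries reached 0.4144 CPM. Of the 172 higher genes, 66 reached that level in 2 libraries only with the help of the siL1 libraries and 2 only with the siL2 libraries, and of the 42 lower genes 8 only with the control libraries. A gene that passed only through the group where it is high had to differ, and without these genes 104 were higher and 34 lower. Such genes were not removed from the counts against siL2 or of particular genes, which therefore add no support for the lean. Of all 1119 genes, 114 passed only through siL1, 41 only through siControl and 54 only through siL2. In each list described above at most 1 gene that rose had passed only through siL1. Where DESeq2's test, given next, returned no adjusted p-value, the gene was counted as not called. The numbers also rest on few reads: the 172 higher and 42 lower genes became 104 and 36 without control replicate 1, 106 and 19 without control replicate 2, 113 and 26 without siL1 replicate 1, 109 and 23 without siL1 replicate 2, and 52 and 5 with DESeq2's test.

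The change at least 2-fold followed the same order. Under 1 CPM, 14.12% of the tested genes were at least 2-fold higher and 3.307% at least 2-fold lower, from 1 to 10 CPM 7.681% and 1.25%, and over 100 CPM 0.7985% and 0.1089%. Calls at low levels can pass only with a large change. Genes that passed the filter only through a single group were not removed from these shares.

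**Figure D5:**
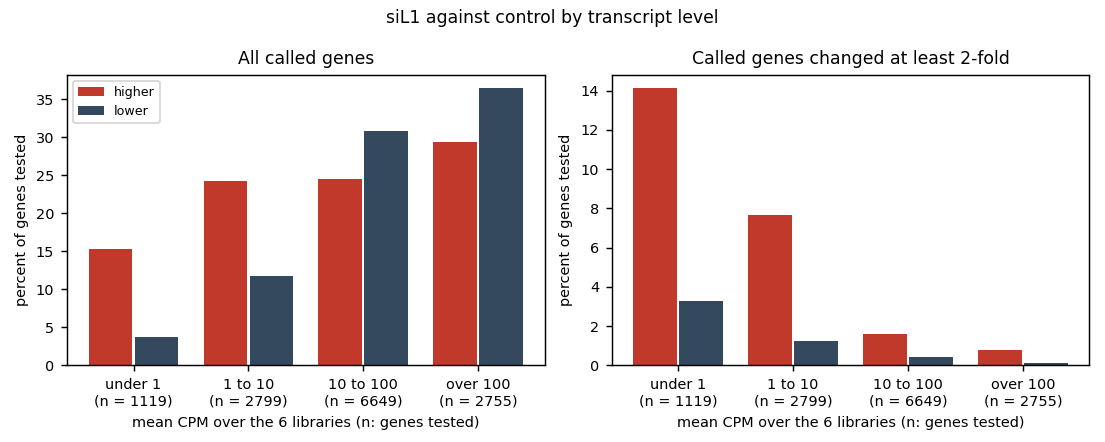
Bars give the percent of tested genes called higher (red) or lower (dark blue) with siL1 than in the control, in 4 classes of the mean CPM over the 6 libraries; the left panel shows all calls and the right panel those changed at least 2-fold. Higher calls outnumber lower ones under 10 CPM in the left panel (172 against 42 under 1 CPM) and in all 4 classes of the right panel, while lower calls outnumber higher ones above 10 CPM in the left panel. Genes that passed the filter only through a single group are included.

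The rare genes that rose, including those that passed the filter only through siL1, were mostly annotated as protein coding. Of the 159 higher genes under 1 CPM matched to RefSeq, 94.97% were protein coding and 2.516% long non-coding RNAs, beside 80.22% and 7.831% of the 996 tested genes of this class that matched. They included the H19 long non-coding RNA, an imprinted transcript, with 0.499 and 0.0846 CPM under siControl, 1.87 and 2.00 CPM under siL1 and 0.595 and 0.325 CPM under siL2. The hair keratin gene KRT81 rose from 0.0454 and 0.127 CPM under siControl to 0.680 and 0.654 CPM under siL1, beside 0.0372 and 0.162 CPM under siL2. TNXB, a matrix tenascin, rose from 0.182 and 0.254 to 1.57 and 1.02 CPM and F13A1, the fibrin cross-linking factor XIII subunit, from 0.136 and 0.127 to 0.680 and 0.858 CPM. In each of these 4 genes both siL1 libraries lay above all 4 others, but KRT81, TNXB and F13A1 had passed the filter only through the siL1 libraries, so their tests support nothing, and the same holds for LSP1. LSP1, a lymphocyte actin-binding protein gene, had 0 counts in both control libraries and 12 and 17 with siL1, which over the group is at least 9.20-fold above the 3 counts that 0 allows. Of the falls, the neuronal calcium sensor NCALD went from 0.681 and 0.550 to 0.212 and 0.0409 CPM.

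Genes at 0 in the control also became visible. Over all genes in the table, 230 had 0 counts in both control libraries and at least 1 count in both siL1 libraries, against 94 with the groups exchanged, and 12 against 3 at a limit of at least 3 counts. The corresponding numbers for siL2 were 175 against 72, and 13 against 3. The siL1 libraries were deeper than the control libraries by 5.449%, and its part in these counts was not tested. At a limit of 5 counts in both libraries, 3 genes appeared with siL1 and 0 disappeared: CA9, LSP1 and TH, the enzyme that starts catecholamine synthesis. TH had 5 and 9 counts with siL1 and also 8 and 4 with siL2.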

How the data were processed

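Transcripts of MDA-MB231 cells were sequenced in 6 libraries, 2 each for siControl, siL1 and siL2. Per the submitters' processing notes, TopHat 1.3.3, HTSeq, DESeq and the build hg19 were used; the settings, strandedness and gene annotation are not given in the sources used here, so overlapping and antisense genes cannot be told apart. The authors deposited whole-number raw counts per gene symbol and library, without normalization, used here as they stand (15 symbols had turned into dates and were not translated). The 4 columns of the authors' own comparisons were not used.

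Counts were analysed with R 4.3.3 and edgeR 4.0.16: filterByExpr by group (13322 genes tested, 10046 left out, of which 5745 had 0 counts everywhere), TMM scaling, and glmQLFit over all 6 libraries with group as the only term, which leaves 3 residual degrees of freedom. glmQLFTest compared siL1 with siControl, siL1 with siL2, and siL2 with siControl, two-sided. The common biological coefficient of variation was 3.72%. SE is that of the log2 fold change. Library totals of 22047738 to 26765079 counts set the precision. The libraries within each group differed beyond sampling noise (chi-square per degree of freedom 3.025 to 3.254). On simulated data for siL1 against siControl with 13215 genes, 47 of 50 genes planted at a log2 change of -1, 38 of 50 at -0.5, 42 of 50 at 0.5 and 49 of 50 at 1 were called, with 8 false calls among 13015. The planted genes had a mean of at least 1 CPM, all other genes had no change, and the simulated libraries were independent. These rates therefore do not carry over to genes under 1 CPM or to data with 50.4% of genes called.

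Gene lists came from general knowledge. The members, lists, motifs and rules were chosen with earlier results of these data known. Genes named are KDM1A, the 10 largest rises and falls against the control and the 10 highest and lowest particular genes (mean of at least 5 CPM, groups not overlapping), up to 6 members per list and direction with the smallest p, the most changed genes under 1 CPM, and a list of well-known genes. TIE1, CDH1, ESR1, FAP, DCN, LUM, COL1A2 and PLVAP were added from the marker lists, and COL6A3 and TH after their values were seen. A few items are not reported here. 3' UTRs were the longest per symbol in GENCODE v29 and promoters those of RefSeq, matched by symbol. Alternatives were other scalings (DESeq2 1.42.0 size factors, upper quartile), filters, tests (DESeq2, limma-voom with limma 3.58.1), a replicate block, only the groups compared, other limits, and each library left out. Figures used Python 3.11.15 and matplotlib 3.10.9.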

Additional observations from a re-analysis of the deposited data

Results flagged for a closer look

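Of 13322 tested genes, 291 were lower with siL1 and higher with siL2 than the control, and 243 the reverse. Among the genes named by rule, some of them chosen for a large difference between the siRNAs, 31 passed the test in opposite directions with siL1 and siL2 against the control and also passed the direct test between the siRNAs with edgeR's quasi-likelihood test. The values are log2 differences of siL1 against siL2. Higher with siL1 than in the control and lower with siL2 were TMOD2 (2.55), RAB38 (2.44), CA12 (2.05), SRPR (1.99), RASSF5 (1.97), LPHN2 (1.82), UCA1 (1.79), PPPDE1 (1.71), SLC39A6 (1.66) and USP46 (1.63). In all of these except CA12 (1.36 with siL1 and -0.69 with siL2) the change against the control was larger with siL2 than with siL1. RAB38 had log2 fold changes of 0.39 with siL1 and -2.05 with siL2, and PPPDE1 of 0.13 and -1.59. In SRPR, which encodes a subunit of the signal recognition particle receptor, siL2 had 62.7 and 63.2 CPM, beside 221 and 215 CPM under siControl and 246 and 255 CPM under siL1. Smaller differences in this direction were found for LDHA (0.81), LOX (0.76), GADD45A (0.66) and KRT8 (0.32). The genes from TMOD2 to USP46 all held the searched heptamer GTTACAA, except UCA1, which had no sequence. Over all searched genes, 9.548% held it. LDHA, LOX, GADD45A and KRT8 lacked it, and CAV1, which went the opposite way, held it. The heptamer was chosen with earlier results of these data known, and some of the genes for a large difference between the siRNAs. Its presence in them therefore supports nothing by itself, and its part in the differences was not tested.

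Lower with siL1 than in the control and higher with siL2 were RG9MTD2 (-2.31), CDC26 (-1.81), XIRP2 (-1.76), LOC100499467 (-1.69), NEAT1 (-1.69), LINC00472 (-1.66), FAM3C (-1.66), PAFAH2 (-1.61), FANCC (-1.09) and MMP24 (-1.09). Of these, NEAT1, LINC00472 and LOC100499467 are names of non-coding transcripts or numbered loci; NEAT1 scaffolds nuclear paraspeckles and had 83.8 and 108 CPM under siControl, 53.8 and 77.2 CPM under siL1, and 193 and 231 CPM under siL2. CDC26, a subunit of the anaphase-promoting complex, had 3.99 and 3.15 CPM under siL1 and 13.0 and 12.0 CPM under siL2. The change against the control was larger with siL2 in RG9MTD2 (1.41, beside -0.90 with siL1), CDC26, NEAT1 and FAM3C. It was larger with siL1 in XIRP2, LOC100499467, LINC00472, PAFAH2, FANCC and MMP24. In the same direction lay the cell cycle genes MCM6 (-0.84), E2F1 (-0.81), HELLS (-0.77), KIF20A (-0.68), MCM2 (-0.61) and PCNA (-0.59), and the caveolar gene CAV1 (-0.33).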

How the results depend on the processing

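Over 30 counts of genes and 430 runs under alternative settings, 405 runs stayed within 1.5 times the main count and 25 did not. Over 422 named gene results and 5861 runs, 5626 kept their side of the threshold, 207 lost the call, 28 gained it and 0 reversed a call. A result called in neither run counts as kept whatever its sign. Requiring also a 2-fold change left 500 higher and 105 lower genes for siL1 against siControl, 342 and 134 for siL1 against siL2, and 295 and 60 particular to siL1. The 172 higher and 42 lower genes under 1 CPM became 68 and 11 with a limit of 0.5 CPM, 331 and 84 with a limit of 2 CPM, 53 and 13 with a filter of at least 1 CPM in 2 libraries, and 52 and 5 with the DESeq2 test. For the limits and the filter this follows from the number of genes in the class. The DESeq2 test gave some genes no adjusted p-value, and these were counted as not called. Their part in the lower counts was not tested. Leaving out each library in turn gave 104 to 177 higher and 19 to 42 lower genes under 1 CPM, 3 to 5 replicative histone genes lower, 0 to 1 of them particular to siL1 (1 without siL2 replicate 1), and 7 to 11 collagen enzymes particular to siL1 as higher. With 1 library left in a group, that library is assumed to vary like the others. Over all settings the median log2 fold change of all genes against the control lay between -0.0154 and 0.0097.

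Same-numbered libraries deviated together (correlations 0.349, 0.453 and 0.406), but there are only 2 numbers, and the labels do not say what they mark. With the replicate block, 3877 genes were higher and 4159 lower against siControl, 3867 and 3833 against siL2, and 2157 and 2266 particular to siL1; 59 replication and 78 mitosis genes were lower, and no count moved by over 1.5 times.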

Other observations

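Of 21 epithelial markers 11 were tested, of which 5 rose and 1 fell with siL1, and their summed level was 546.4 and 553 CPM under siControl and 557.8 and 578.6 CPM under siL1. Of 21 neuronal markers 7 were tested, with 1 higher and 3 lower, and of 24 germline markers 3 were tested, with 0 higher and 1 lower. Among the 15 markers of the line 8 rose, 1 of them having passed the filter only through the siL1 libraries, and 4 fell. Over all tested genes 24.7% were higher and 25.7% lower with siL1. The neuronal and germline lists are too short to set against these shares. The hyaluronan receptor CD44 fell from 723 and 698 CPM to 563 and 546 CPM under siL1, beside 681 and 687 CPM under siL2, while AXL rose with both siRNAs, to 1947 and 1849.8 CPM under siL1 and 1905.5 and 1846 CPM under siL2.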
